A study of Mus musculus with 8 samples.

Results

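The genes described here are the 7 that encode the enzymes of CpG methylation and its removal together with the main recruiting factor, namely Dnmt1, Uhrf1, Dnmt3a, Dnmt3b, Tet1, Tet2 and Tet3. They were chosen by name, as 7 of the 21755 annotated protein-coding genes of the autosomes and X, and the rule used no methylation value. Each gene was taken with 10 kb to either side, and CpGs counted where every file held 5 or more reads. Of 8657 CpGs that the reference has in these regions, 8204 met this, and they filled 618 of the 2018320 windows of 1 kb tested in the genome.

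CpG methylation is copied at DNA replication by Dnmt1, which Uhrf1 brings to half-methylated sites, and it is laid down on unmethylated DNA by Dnmt3a and Dnmt3b. The Tet enzymes oxidise 5-methylcytosine to 5-hydroxymethylcytosine, a first step of its removal. In lymphocytes Dnmt3a, Tet2 and Tet3 are known for their part in differentiation, and the genes of this machinery themselves carry CpG-rich starts and methylated bodies.

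The 4 groups were B cells and T cells of females and of males, from the spleen of C57BL/6J mice aged 6 to 8 weeks, with no treatment and no engineered allele in any of them. B cells were resting and CD43-, and T cells were naive CD4+CD62L+ cells sorted by flow cytometry, with cells of several animals pooled for a library. Whole-genome bisulfite sequencing reads unconverted cytosine, so the methylation level is the percentage of reads left unconverted at a CpG, and 5-methylcytosine and 5-hydroxymethylcytosine are not told apart. The labels also describe an oxidised portion of each sample, in which 5-hydroxymethylcytosine would not be counted. The files were taken as plain bisulfite data from their names alone. The 8 samples share 4 files, 1 per group, so no spread between pools of 1 group can be had, and a B and T cell difference was seen once in each sex.

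The sequences of 5 runs of CpGs, 4 inside the genes and 1 past the end of Dnmt3a, are shown first because they hold large switches between the cell types. Each is printed 5′ to 3′ on the strand of its gene from the RefSeq copy of GRCm38, with CpGs in capitals. In every case it is the run of 4 or more measured CpGs, within 300 bases, with the largest difference in a named window, so the choice set both the small number of CpGs and the levels, which were not tested.
Tet3, intron, chr6:83415147-83415377, minus strand: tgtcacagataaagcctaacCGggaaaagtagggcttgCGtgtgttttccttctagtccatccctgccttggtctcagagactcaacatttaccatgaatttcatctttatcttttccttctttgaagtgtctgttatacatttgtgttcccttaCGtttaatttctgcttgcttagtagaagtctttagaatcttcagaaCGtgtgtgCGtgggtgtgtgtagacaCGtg
Tet1, intron, chr10:62851594-62851732, minus strand: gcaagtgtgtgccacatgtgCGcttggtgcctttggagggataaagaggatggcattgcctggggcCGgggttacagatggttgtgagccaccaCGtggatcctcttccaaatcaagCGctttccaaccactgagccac
Uhrf1, around a coding exon, chr17:56309426-56309554, plus strand: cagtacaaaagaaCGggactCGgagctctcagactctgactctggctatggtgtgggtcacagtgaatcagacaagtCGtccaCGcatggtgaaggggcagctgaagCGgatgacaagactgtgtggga
Dnmt3a, 3′ flank, chr12:3917687-3917913, plus strand: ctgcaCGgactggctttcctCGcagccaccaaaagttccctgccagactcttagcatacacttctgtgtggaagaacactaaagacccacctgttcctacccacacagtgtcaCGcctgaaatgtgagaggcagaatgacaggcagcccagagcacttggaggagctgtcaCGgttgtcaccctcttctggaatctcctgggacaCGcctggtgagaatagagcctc
Dnmt1, intron, chr9:20948986-20949062, minus strand: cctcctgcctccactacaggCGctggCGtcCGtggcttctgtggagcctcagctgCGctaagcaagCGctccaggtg

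Where a pair of values is given, the female file comes first and the male file second. The Tet3 run was methylated in 90.5% and 94.2% of reads in B cells, whereas T cells had 4.76% and 3.57%. The Tet1 run stood at 97.3% and 88.0% in B cells and at 1.82% and 1.37% in T cells. Both were thus almost fully methylated in one cell type and almost free of methylation in the other. The Uhrf1 run went the other way, with 4.11% and 9.52% in B cells and 82.9% and 93.2% in T cells. So did the Dnmt3a run, at 2.41% and 4.42% in B cells and 85.0% and 84.1% in T cells. The Dnmt1 run kept an intermediate level in T cells, with 30.9% in females and 22.8% in males, below the 90.0% and 91.7% of B cells. Between 28 and 113 reads covered each of these values. Here and wherever a level covers several CpGs, reads are summed over them, so a read counts once for each CpG it spans. The values are taken over 4 CpGs of each sequence. Counted from base 1 at the 5′ end, these CpGs begin at bases 21, 39, 202 and 210 in Tet3, at 21, 78, 84 and 108 in Uhrf1, at 21, 114, 172 and 206 in Dnmt3a and at 21, 27, 31 and 56 in Dnmt1, and they are all 4 of those in Tet1. The other capitals were not counted.

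The files held a mean of 14.6 to 17.7 reads per autosomal CpG. Whether a file joins both samples of its group or holds 1 of them is not stated, and each was used as a single measurement. The first annotated start of 7 of 9 B cell markers was less methylated in B cells and that of 7 of 10 T cell markers was less methylated in T cells, by 20 percentage points or more, as the labels of the files would have it. Among 10 starts of markers of other cells, those of Cd8a and Cd8b1, genes of CD8 T cells, were called, both lower in T cells. That of Lyz2, a myeloid gene, was at 41.5% and 50.7% in B cells and 64.1% and 66.7% in T cells, −19.3 points (adjusted p = 0.00941) and so just below the minimum. The exceptions among the lineage markers differed by less, such as Cr2 at 10.7% and 8.4% in B cells and 13.5% and 14.4% in T cells. The T cell marker Cd28 went the other way, at 90.1% and 90.7% in B cells and 94.0% and 93.4% in T cells. No marker of another cell was at or near 0 in one cell type alone. A small share of other cells would shift such a level only a little, so this does not measure purity.

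Windows were compared between B and T cells in a quasi-binomial model that also held sex, and called where the adjusted p was under 0.05 and the levels differed by 20 percentage points or more on average. By this rule 40 of the 618 windows of the 7 genes were called (6.47%), beside 2.08% of all windows of the genome and 2.77% of those in or near a protein-coding gene. The direction was uneven, with 34 windows higher in B cells and 6 lower, where the genome had 1.16% of windows higher and 0.913% lower. Of the 34, 16 lay in Tet3, mostly in runs of neighbouring windows, while Dnmt3a had 3 higher and 3 lower and Uhrf1 2 and 3. Called and other windows of the 7 genes both had a median of 10.5 CpGs, beside 7 over all windows tested, which these shares do not allow for. Each of the 7 genes held at least 1 called window, which 48.1% of protein-coding genes did, although Dnmt3b had none with limma on log2 ratios and Tet2 none with a minimum of 10 reads per CpG. The 7 genes had 40 to 129 windows each, and the 48.1% was not matched for gene length. At an unadjusted p under 0.05 there were 139 windows. The smallest adjusted p-values of single windows rest on an average spread over windows. The lowest among the named windows, 6.45e-91 at Uhrf1, was 0.00244 with the dispersion prior taken from all features and 0.00861 with limma on log2 ratios, and no named window was below 0.00244 by the former or 0.00328 by the latter.

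**Figure D1:**
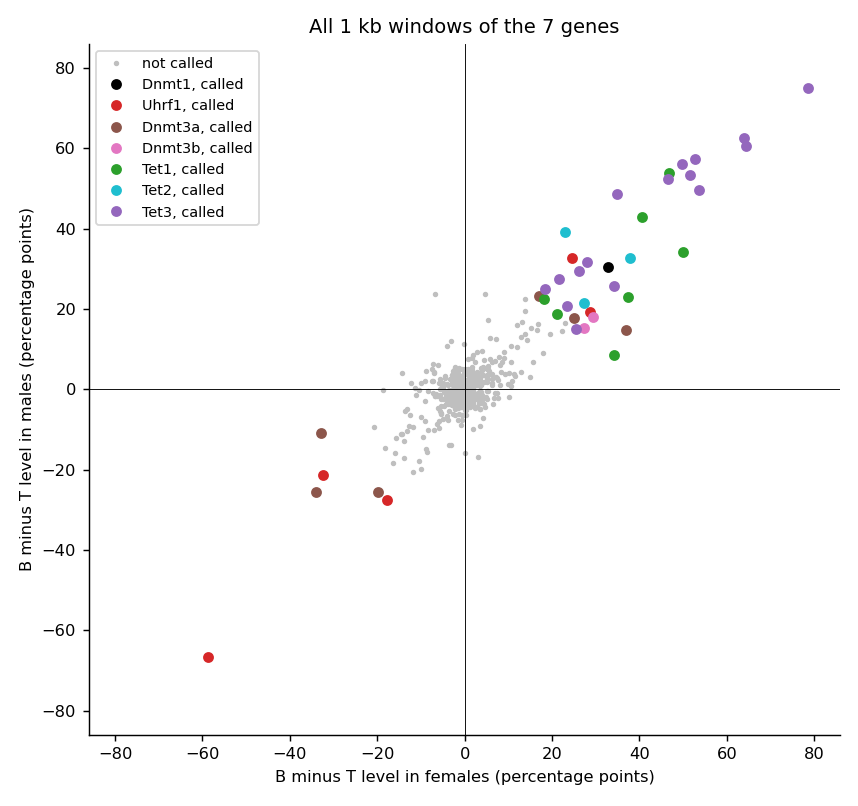
Each point is one of the 618 windows of 1 kb, with the B minus T difference in females on the horizontal axis and in males on the vertical axis, both in percentage points. The 40 called windows, coloured by gene, all have the same sign in both sexes, with the Tet3 windows at the upper right and one Uhrf1 window at the lower left, while the 578 others (grey) crowd around 0.

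All 40 called windows had the same sign in females and males, as the plot of one sex against the other shows, and so did 41927 of the 41929 called windows of the genome, which the calling rule favours. Their median level was 82.6% and 81.5% in B cells and 55.4% and 53.4% in T cells. The 578 other windows had medians between 94.3% and 94.5% in all 4 files, so most of the sequence of these genes was methylated alike. By position, the called windows were 29 of 305 in introns (9.51%), 3 of 120 over a coding exon (2.50%), 3 of 17 over an exon of a non-coding transcript (17.6%), 5 of 130 in the flanks (3.85%) and none of 46 over an untranslated exon. Shares by position were not counted over the genome, so these have no background beside them, and 16 of the 40 called windows were in Tet3.

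Of the maintenance genes, Dnmt1 (chr9:20907209-20959888, minus strand) had the fewest called windows of the 7. It held 1 called window among 73, and 61 of the 73 were over 80% in every file. That window, chr9:20949001-20950000, lies 3.48 kb inside the gene from its CpG-richest start, in intron 1, and has 13 CpGs. Its level was 88.1% and 87.1% in B cells and 55.3% and 56.6% in T cells. B cells exceeded T cells by 31.7 points (adjusted p = 1.06e-21), and the cell types did not overlap, which the calling rule favours. The 95% Wilson intervals of these levels were at most 5.85 points to a side, for counting error only. As elsewhere, they take the CpGs of a read as independent and are too narrow where a read spans several.

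Uhrf1 (chr17:56303321-56323486, plus strand), whose product reads half-methylated DNA, held the largest difference with less methylation in B cells. A run of 3 windows, chr17:56307001-56310000, was lower in B cells, starting 3 kb after the CpG-richest start. At its core, chr17:56309001-56310000, which holds 16 CpGs and a coding exon, the level was 24.6% and 21.1% in B cells and 83.4% and 87.9% in T cells. The difference was −62.8 points (adjusted p = 6.45e-91). The neighbouring windows changed less, with 55.2% and 63.0% in B cells and 87.6% and 84.4% in T cells in the middle one, a difference of −26.9 points. In the first, the levels were 75.0% and 58.7% in B cells and 92.8% and 86.3% in T cells, a difference of −22.7 points, which was −14.5 and not called without the male B cell file. The difference was thus largest in the last window of the run, whereas the first was the smaller of the other two in females (−17.8 and −32.5 points) and the larger in males (−27.6 and −21.4 points). With limma on log2 ratios, only the core window kept the call among the 5 called in Uhrf1 and its flanks. The windows from the end of the run to the end of the gene were over 80% in all files.

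Past the end of Uhrf1, within annotated Kdm4b (a histone demethylase gene), 2 windows of the 3′ flank went in the opposite direction. The one at chr17:56330001-56331000 had 53.6% and 60.0% in B cells and 29.0% and 27.4% in T cells, a difference of 28.6 points. The one at chr17:56328001-56329000 had 89.6% and 88.6% in B cells and 61.0% and 69.4% in T cells, a difference of 23.9 points. Since they overlap Kdm4b, they are counted by the rule of distance only. Between Uhrf1 and these windows lay 2 windows with 1.11% to 3.56% in every file, 1 of which overlaps Kdm4b.

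**Figure D2:**
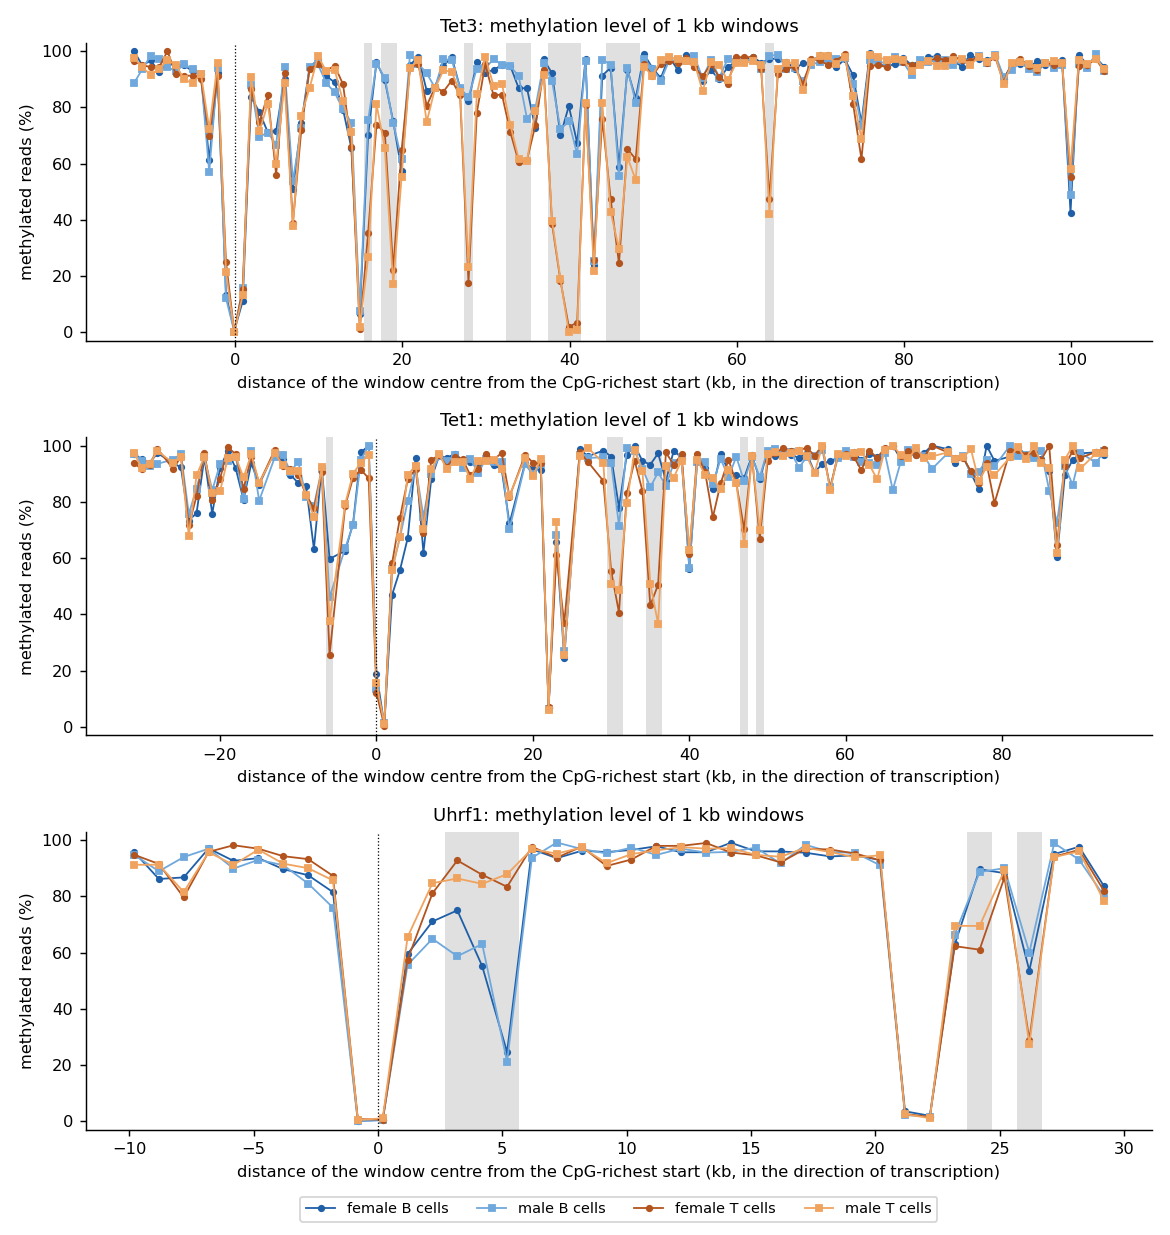
Methylation level (percentage of reads) of each 1 kb window of Tet3, Tet1 and Uhrf1 with 10 kb to either side, by distance of the window centre from the CpG-richest start in kb, for female (dark, circles) and male (light, squares) B cells (blue) and T cells (orange). Grey bands mark the called windows, where both T cell lines run below both B cell lines in Tet3 and Tet1 and above them in the first run of Uhrf1. In the lowest window near distance 0 all 4 files are at 1.25% or less.

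The de novo methyltransferase Dnmt3a (chr12:3806007-3914443, plus strand) had windows in both directions, 3 higher and 3 lower in B cells among 129. With limma on log2 ratios only 1 of them, a higher one, was called, and the 3 lower ones had adjusted p of 0.101 to 0.357. At chr12:3917001-3918000, in the 3′ flank 2558 bp past the annotated end, the level over 20 CpGs was 49.7% and 54.1% in B cells and 83.6% and 79.8% in T cells, a difference of −29.8 points (adjusted p = 8.82e-28). The adjoining window had 39.0% in female and 60.6% in male B cells and 71.8% and 71.4% in T cells, a difference of −21.8 points, made up of −32.8 in females and −10.7 in males. Without the female B cell file it was −11.0 points and not called, and with a minimum of 10 reads per CpG it was −12.0 points. With CpGs at equal weight it was −15.9 points. In intron 1, at chr12:3824001-3825000, B cells stood at 51.6% and 54.0% and T cells at 71.5% and 79.4%, a difference of −22.7 points.

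The 3 higher windows of Dnmt3a were intronic and had 4 to 7 CpGs each. At chr12:3886001-3887000 the level was 92.3% and 96.7% in B cells and 55.4% and 82.0% in T cells, so that the T cell files differed from each other by more than the male files of the cell types did. At chr12:3847001-3848000 it was 92.3% and 90.3% against 67.3% and 72.5%, and at chr12:3890001-3891000 it was 74.5% and 75.9% against 57.6% and 52.6%, again B cells first. The differences were 25.8, 21.4 and 20.1 points, the last barely past the minimum and 13.8 points with CpGs at equal weight. The first was 12.5 points and not called without the female T cell file (adjusted p = 0.26), and 39.1 points without the male one. The other 2 each lost the call without any 1 of 3 of the 4 files, where their differences were 17.7 to 22.4 points. The last of them lies just before an internal start, described with the starts, that was nearly free of methylation in all files.

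Dnmt3b (chr2:153649450-153687730, plus strand), the other de novo enzyme, held 2 called windows among 56, both higher in B cells. At chr2:153651001-153652000, in intron 1 and 2.05 kb after the start, the level over 12 CpGs was 45.5% in female and 34.3% in male B cells and 16.1% and 16.3% in T cells, a difference of 23.7 points (adjusted p = 6.14e-10). With CpGs at equal weight the difference was 19.1 points. This window is the edge of the unmethylated stretch at the start. That stretch, taken outward from the start until the next 5 CpGs averaged over 50%, spanned 1609 bp in female and 1718 bp in male B cells and 2309 bp in both T cell files. The other window, chr2:153639001-153640000 in the 5′ flank, had 62.8% and 63.9% in B cells and 35.5% and 48.6% in T cells, a difference of 21.3 points. It was 5.38 points with a minimum of 10 reads per CpG (adjusted p = 0.848) and 10.8 points with CpGs at equal weight. It was 14.7 points and not called without the female T cell file, and not called without the male B cell file either (adjusted p = 0.123).

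The same measure gave stretches of 2509 bp in both B cell files and 2134 bp in both T cell files at the start of Dnmt3a, the reverse order. At Dnmt1 the stretch was 1632 and 1661 bp in B cells and 1815 bp in both T cell files. At the starts of the other genes the lengths of the cell types overlapped or differed by less than 150 bp. Since 1 CpG can move such an edge, no test was made of these lengths.

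Of the Tet genes, Tet3 (chr6:83362373-83459084, minus strand) had the most called windows of the 7. It held 16 called windows among 117, every one higher in B cells, a number that 275 of 21600 protein-coding genes of any length reached. They lay in 5 groups between 15.9 and 63.9 kb after the CpG-richest start, 15 of them within the long intron 3 of transcript Tet3-203 and 1 in intron 4. The longest group spanned 9 kb and 7 called windows, and the groups to either side of it held 4 and 1 of them.

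At the end of that group away from the start, Tet3 was methylated in B cells and nearly unmethylated in T cells. At chr6:83416001-83417000 (6 CpGs) the level was 80.5% in female and 75.0% in male B cells, against 1.98% in female T cells. Male T cells had 0 of 101 reads, which allows a share of up to 2.97% with 3 reads as the limit. The Wilson interval there ends at 3.66%. Both limits count a read once for each of the 6 CpGs it spans, as if independent, and are too low where a read spans several. The difference was 76.7 points (adjusted p = 1.85e-47). At chr6:83415001-83416000 (12 CpGs), the window of the printed sequence, it was 67.3% and 63.3% in B cells and 3.47% and 0.781% in T cells, a difference of 63.2 points (adjusted p = 7.89e-50). In the group of a single window on the other side, chr6:83428001-83429000 (7 CpGs), it was 82.1% and 83.7% in B cells and 17.7% and 23.1% in T cells, a difference of 62.5 points (adjusted p = 1.41e-25). In none of these did the intervals of B and T cells meet, although each was up to 9.10 points to a side. These windows were named for the size of their differences, so this follows from the choice.

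The other 13 called windows of Tet3 had smaller differences, from 20.2 to 55.1 points. Among them, chr6:83437001-83438000 stood at 75.0% and 74.4% in B cells and at 22.2% and 17.0% in T cells. The single window of intron 4, chr6:83392001-83393000, stood at 97.2% and 98.3% in B cells and at 47.5% and 42.2% in T cells. The annotation places the non-coding transcript 5430434F05Rik over 2 of the windows, chr6:83417001-83419000, so these lie in both genes. Between the groups lay windows alike in all files, such as chr6:83413001-83414000 at 24.0% and 25.5% in B cells and 25.9% and 21.9% in T cells, and no window of the gene beyond intron 4 was called.

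The group of 4 called windows further into the gene, chr6:83408001-83412000, kept a middling level in T cells. From the end of the group nearest the start, B cells had 94.1% and 95.2%, then 58.8% and 55.5%, then 93.3% and 94.0%, then 83.2% and 81.7%. T cells had 47.5% and 42.9%, then 24.5% and 29.6%, then 65.2% and 62.3%, then 61.6% and 54.2% in the same windows. The second window was thus the lowest in both cell types, and the B minus T difference stayed between 24.5 and 49.5 points over all 4.

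Tet1 (chr10:62804570-62908996, minus strand) followed with 7 called windows among 116, all higher in B cells. The largest difference was at chr10:62851001-62852000 (11 CpGs), 36.0 kb after the CpG-richest start, with 97.2% and 90.5% in B cells and 50.5% and 36.6% in T cells, 50.3 points in the mean (adjusted p = 2.33e-40). Next to it, chr10:62852001-62853000 stood at 93.2% and 85.2% in B cells and at 43.2% and 50.9% in T cells, a difference of 42.2 points. A separate pair of called windows closer to the start included chr10:62857001-62858000, with 96.1% and 93.8% in B cells and 55.4% and 50.7% in T cells, a difference of 41.8 points. All of these are intronic, whereas 2 further windows, with differences barely past the minimum of 20 points, touch coding exons. The last called window, chr10:62893001-62894000, is upstream of the CpG-richest start, overlaps the annotated gene Gm26479, and had 59.7% and 46.0% in B cells and 25.5% and 37.6% in T cells. Its difference of 21.3 points was made up of 34.2 in females and 8.47 in males, and was 13.0 with CpGs at equal weight. Almost all of this window lies within 1 kb of the annotated start at chr10:62892986, described with the starts. Without the female B cell file, or without the female T cell file, Tet1 had 5 called windows.

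Tet2 (chr3:133463679-133545139, minus strand), the Tet gene best known from blood cells, held 3 called windows among 87, again all higher in B cells and all intronic, and none of its 66 windows was called with a minimum of 10 reads per CpG. At chr3:133508001-133509000 (4 CpGs) the level was 94.0% and 100% in B cells and 56.2% and 67.3% in T cells, a difference of 35.2 points (adjusted p = 8.24e-08). At chr3:133526001-133527000 it was 61.8% and 81.2% in B cells and 38.9% and 42.1% in T cells, a difference of 31.0 points, or 22.4 with CpGs at equal weight. At chr3:133510001-133511000 the level was 92.3% and 92.2% in B cells and 64.9% and 70.7% in T cells, a difference of 24.5 points. The 3 Tet genes thus had 26 called windows, none of them lower in B cells by this rule. With a minimum difference of 10 points Tet1 and Tet3 each had 3 lower ones, with windows of 500 bp Tet1 had 2, and without the male B cell file it had 1.

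**Figure D3:**
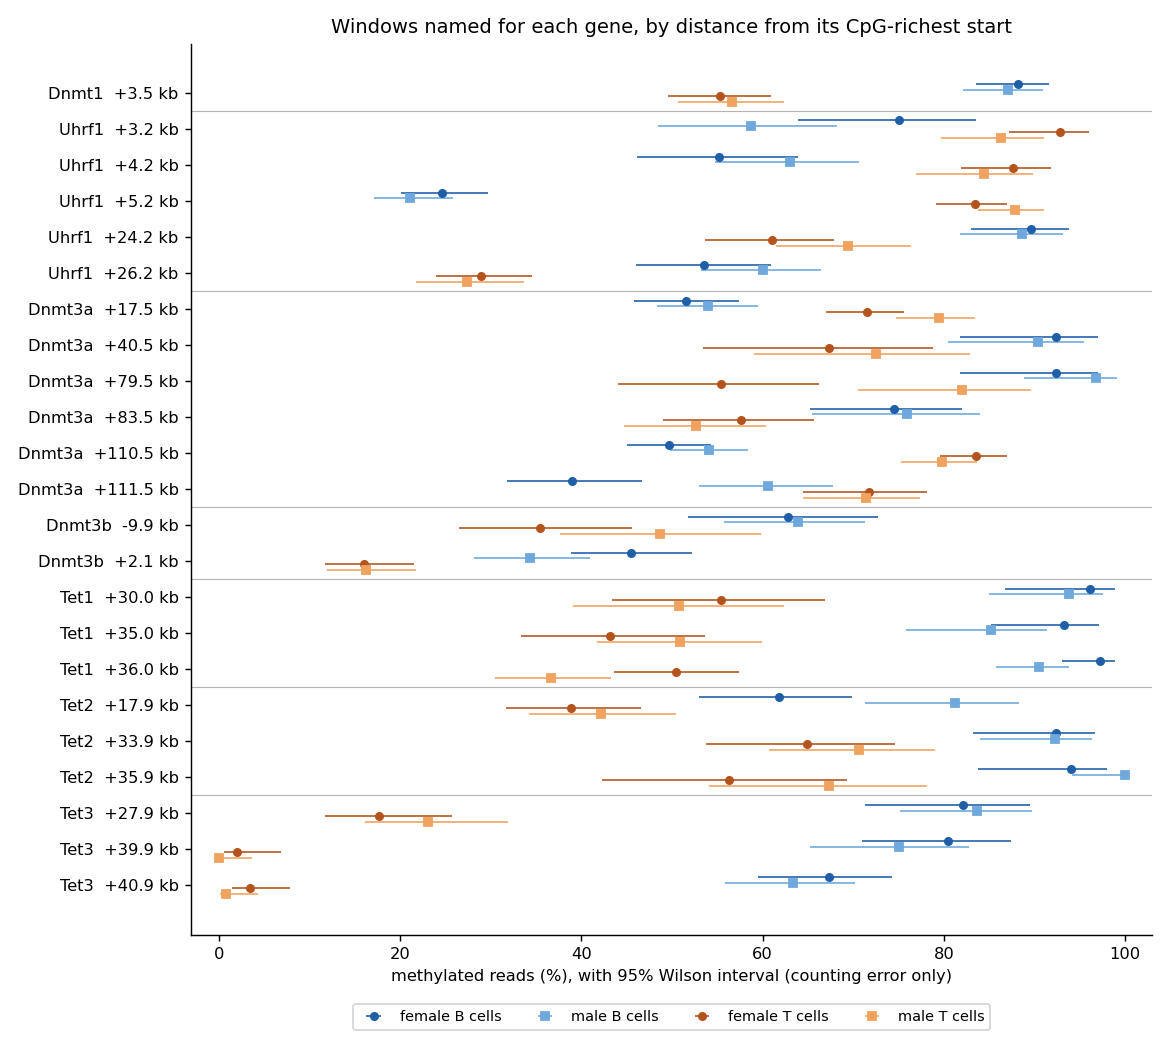
Methylation level (percentage of reads, horizontal axis) of the windows named for each gene, labelled by distance from the CpG-richest start in kb, in female and male B cells (blue) and T cells (orange), with 95% Wilson intervals as bars. B cells lie to the right of T cells except in the first 3 windows of Uhrf1 and in 3 of the 6 windows of Dnmt3a.

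The starts of the 7 genes were compared next, since methylation of a CpG-rich start goes with a silent promoter. The annotation gives 41 distinct starts, of which 40 had enough CpGs within 1 kb to either side. No start was called between B and T cells in the quasi-binomial model, where 1.94% of all starts of the genome were. At an unadjusted p under 0.05 there were 7, and limma on log2 ratios and Fisher's exact test in each sex also called 0.

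The CpG-richest start of each gene was nearly or largely unmethylated in all 4 files. The lowest levels were at Dnmt3a, with 0.843% and 0.491% in B cells and 0.210% and 0.324% in T cells over 221 CpGs. At Tet3 they were 0.749% and 0.362% in B cells and 1.51% and 0.794% in T cells, at Tet2 0.680% to 1.07% and at Uhrf1 0.975% to 1.53% over the 4 files. Dnmt1 was at 5.83% to 7.28% and Tet1 at 7.33% to 10.2%. The highest was Dnmt3b, with 9.55% and 8.87% in B cells and 7.95% and 14.3% in T cells, where the male T cell file stood apart. The mean B minus T difference of these 7 starts was at most 1.91 points in size, at Dnmt3b. There it was −5.09 points without the female T cell file and 1.26 points without the male T cell file.

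Alternative starts differed from each other far more than the cell types did. Dnmt1 has an annotated start at chr9:20959888, upstream of the CpG-rich one at chr9:20952979. Oocytes are known to begin Dnmt1 transcripts at an exon of their own, but whether the upstream start is that one was not checked. Within 1 kb of the upstream start the level was 90.8% and 91.5% in B cells and 88.8% and 90.0% in T cells. The sequences of the pair, each 150 bases before the start and the 150 from it on, chr9:20959739-20960038 and chr9:20952830-20953129, minus strand, GRCm38, show the contrast in CpGs, again in capitals.
Dnmt1, upstream start: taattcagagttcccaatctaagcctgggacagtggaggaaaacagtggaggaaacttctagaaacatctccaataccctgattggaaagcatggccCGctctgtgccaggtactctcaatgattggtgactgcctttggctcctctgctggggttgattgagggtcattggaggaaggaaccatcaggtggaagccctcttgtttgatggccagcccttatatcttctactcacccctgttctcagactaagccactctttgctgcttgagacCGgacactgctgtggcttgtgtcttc
Dnmt1, CpG-rich start: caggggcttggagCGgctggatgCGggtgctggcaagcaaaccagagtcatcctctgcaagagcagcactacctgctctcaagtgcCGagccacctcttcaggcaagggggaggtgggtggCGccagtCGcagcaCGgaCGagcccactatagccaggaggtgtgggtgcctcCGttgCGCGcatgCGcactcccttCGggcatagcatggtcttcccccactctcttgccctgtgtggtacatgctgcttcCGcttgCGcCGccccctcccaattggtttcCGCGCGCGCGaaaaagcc
The upstream one holds 2 CpGs in 300 bases, methylated in 97.0% to 100% of 20 to 41 reads. The CpG-rich one holds 20, methylated in at most 0.484% of the 413 to 462 reads of a file. In female T cells and male B cells none of its reads was methylated, which allows shares of up to 0.674% and 0.654% with 3 reads as the limit. These reads are summed over the 20 CpGs, so the limits are too low where a read spans several.

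Dnmt3a had 13 annotated starts, which fell into a cluster at the beginning of the gene and others inside it. The internal start at chr12:3891728, where 2 coding transcripts (Dnmt3a-205 and Dnmt3a-203) begin, was at 3.05% and 3.04% in B cells and 3.91% and 3.48% in T cells. It was the only internal start of Dnmt3a under 20%. A shorter form of the enzyme is known from embryonic and germ cells, and whether it begins at this start was not checked. Starts 4 to 7 and 9 to 13 were between 82.8% and 97.8% in every file.

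**Figure D4:**
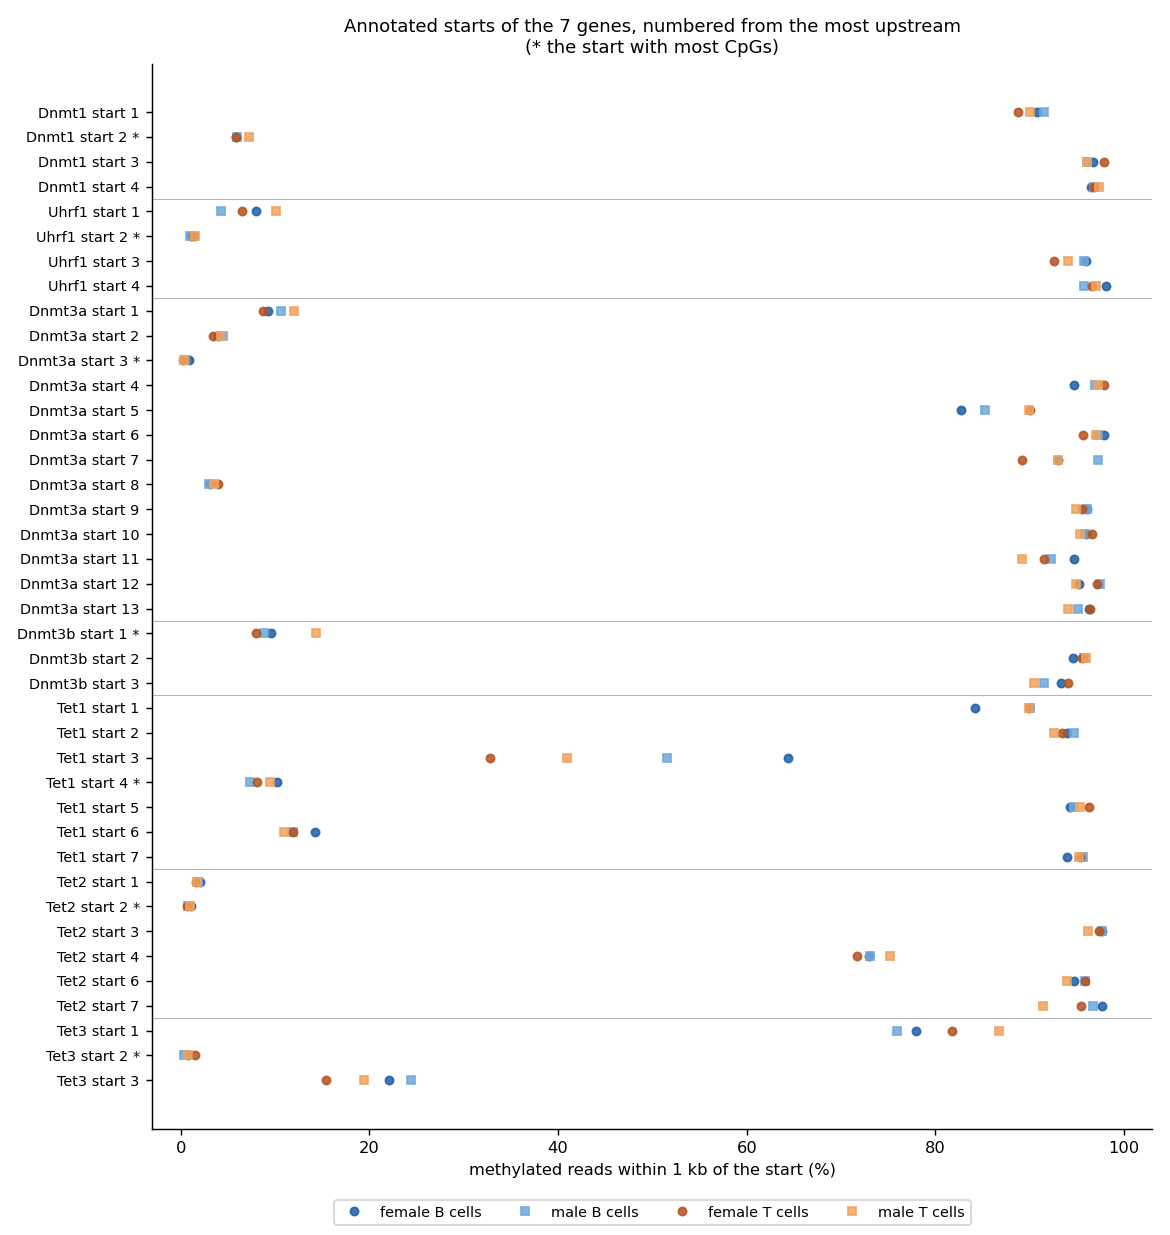
Methylation level (percentage of reads within 1 kb of the start, horizontal axis) at each of the 40 tested starts, numbered from the most upstream within each gene, with an asterisk at the CpG-richest one, in female and male B cells (blue) and T cells (orange). The points of the 4 files lie almost on each other for most starts, either under 20% (13 starts) or over 80% (23 starts), and spread at Tet1 start 3.

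Tet3 has 3 starts. The most upstream was at 77.9% and 75.9% in B cells and 81.7% and 86.7% in T cells, the second is the CpG-richest, and the third, chr6:83441678, 14714 bp downstream, begins 3 transcripts. There the level was 22.1% and 24.4% in B cells and 15.4% and 19.5% in T cells. The difference of 5.82 points had an adjusted p of 0.0396 but was below the minimum of 20. It was 0.251 points with a minimum of 10 reads per CpG and 11.0 points with CpGs at equal weight. The called window chr6:83440001-83441000, at 70.2% and 75.3% in B cells and 35.4% and 26.6% in T cells, overlaps the downstream end of this start region.

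Tet1 has 7 starts, and the one at chr10:62892986, with 9 CpGs, gave the largest start difference of the 7 genes. It was at 64.4% in female and 51.6% in male B cells and at 32.7% and 41.0% in T cells. The difference of 21.1 points had an adjusted p of 0.0909 and was not called. It was 31.6 points in females and 10.6 in males, and overall 2.00 points with a minimum of 10 reads per CpG, 5.06 points within 500 bp of the start and 13.9 points with CpGs at equal weight. A start of a non-coding transcript inside the gene, chr10:62865304, was at 11.0% to 14.2% in all files. Tet2 and Uhrf1 each had 2 neighbouring starts in one CpG-rich region, all under 20% in every file, and their other tested starts were above 70%.

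Outside the starts few windows were low in both cell types. Of the 618 windows, 23 were under 20% in every file, and 463 were over 80% in every file. Most of the 23 lay at the starts just described. An exception was chr12:3834001-3835000 in an intron of Dnmt3a, with 12 CpGs and no annotated start of the gene, at 3.91% and 5.37% in B cells and under 1% in both T cell files. Another was chr9:20898001-20899000 in the 3′ flank of Dnmt1, over the neighbouring gene Eif3g, at 2.62% to 3.88% in the 4 files.

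Gene bodies, here the annotated gene without 1 kb to either side of each start, needed a difference of 5 points and an adjusted p under 0.05 to be called, as a long body averages many CpGs. The bodies of 2 of the 7 genes were called, beside 7.06% of all bodies. Tet3 was at 90.4% and 90.1% in B cells and at 82.9% and 83.6% in T cells, 6.97 points higher in B cells (adjusted p = 4.40e-06). Uhrf1 was at 82.7% and 83.2% in B cells and at 91.3% and 91.8% in T cells, 8.61 points lower in B cells (adjusted p = 6.14e-05). In both genes the difference between the cell types was many times that between the sexes, which was under 1 point.

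**Figure D5:**
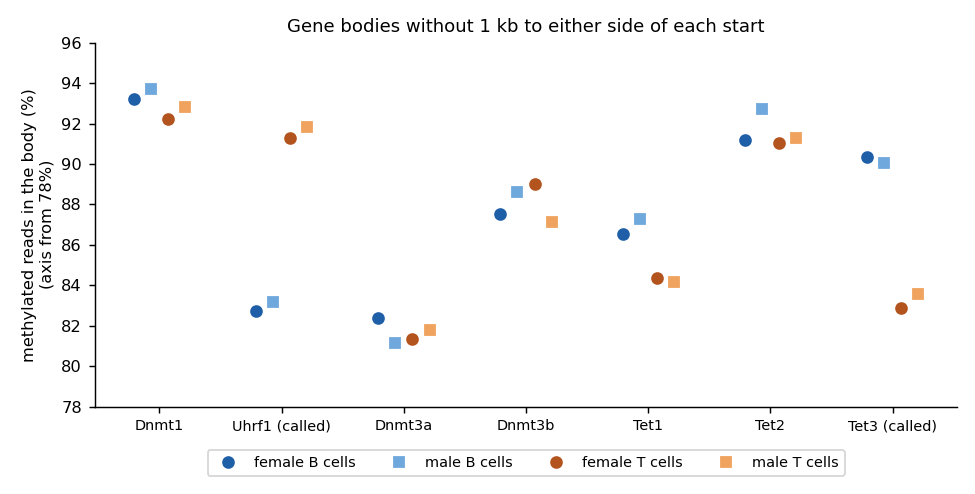
Methylation level of the gene body (percentage of reads, vertical axis from 78%) in each file, with female (circles) and male (squares) B cells in blue and T cells in orange. Uhrf1 and Tet3 separate the cell types in opposite directions, and the files of the other genes lie within 4 points of each other.

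The body of Tet1 was higher in B cells by 2.63 points (adjusted p = 0.00159) and that of Dnmt1 by 0.913 points (adjusted p = 0.0351), both below the minimum. The bodies of Dnmt3a, Dnmt3b and Tet2 differed by 0.225, −0.0139 and 0.802 points and had adjusted p of 0.242 or more. Over all 19126 bodies the median size of the difference was 1.07 points. In Tet3 the introns had the larger mean difference, 8.50 points against 3.48 in exons. In Uhrf1 the exons had the larger one, −15.1 points over 54 CpGs, against −5.97 points over the 144 CpGs of the introns. The 3′ flank of Dnmt3a differed by −10.6 points, beside the 0.225 points of its body.

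Between females and males no window of the 7 genes was called by the quasi-binomial model, where 0.00103% of autosomal windows of the genome were. At an unadjusted p under 0.05 there were 35 of 618, and limma on log2 ratios also called 0. All 7 genes are autosomal. The B minus T difference itself was compared between the sexes from the residual of the model, for the 23 named windows, the 40 starts and the 7 bodies. None of the 70 had an adjusted p under 0.05, and 6 had an unadjusted p under 0.05, among them the Dnmt3b start and the first start of Uhrf1. At the latter, the female B cell file exceeded the female T cell file by 1.50 points, and the male difference was −5.83 points (unadjusted p = 0.000586, adjusted p = 0.708).

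Other genes that act with this machinery were counted as a list of 42, from partners of Dnmt1 to readers of methylated DNA and enzymes of base excision repair. They had 115 called windows among 2068 (5.56%), 49 higher and 66 lower in B cells, in 26 of the 42 genes, beside 2.77% of windows in or near a protein-coding gene and 48.1% of such genes. Of 40 bodies tested, 3 were called higher in B cells and 6 lower, where 7.06% of all bodies were called, and the median difference was −0.0543 points. Of 166 starts 7 were called, where 1.94% of all starts were, and the CpG-richest start was under 20% in all files for 33 of the 42 genes.

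By the largest window difference seen in both sexes, the first of these genes was Mbd2, which encodes a protein that binds methylated CpGs. Its leading window was at 93.9% and 89.8% in B cells and at 8.79% and 9.19% in T cells, and all 15 of its called windows were higher in B cells, as in Tet3. Setd2 (a histone H3K36 methyltransferase) had 95.8% and 96.7% against 19.3% and 23.5%, Zbtb38 (a zinc finger reader of methylated DNA) 96.7% and 96.7% against 28.9% and 28.4%, and Idh2 (a mitochondrial dehydrogenase that makes the Tet cofactor 2-oxoglutarate) 92.3% and 92.3% against 35.5% and 33.9%, B cells first. In all, Setd2 had 3 called windows higher and 3 lower in B cells, Zbtb38 had 2 higher and 4 lower, and Idh2 had 4 higher and 1 lower. The other direction was led by Apobec1 (a cytidine deaminase), at 20.5% and 20.4% in B cells and 90.4% and 95.2% in T cells, with 1 called window higher and 6 lower. Xrcc1, a scaffold of base excision repair, had 8 called windows, all lower in B cells, the leading one at 32.4% and 34.6% against 94.7% and 94.8%, and 3 of its 8 starts were called.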

How the data were processed

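The series holds whole-genome bisulfite libraries, and the 4 files used give 1 row per CpG. Both the fraction of methylated reads and the coverage, a count, are as deposited by the authors. Per the submitters' processing notes, the tools named are Trim Galore, FastQC and Bismark 0.13.1, with build mm10 (GRCm38). Duplicate removal and conversion rate are not given in the sources used here, and a library kept with PCR duplicates would have larger errors than stated. Methylated reads were recovered as fraction times coverage, rounded, and the fraction this gives back differed from the deposited one by at most 0.000995. Positions were matched to the reference, and all CpGs used in the 7 genes lay on a reference CpG.

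CpGs with 5 or more reads in all files (18216084 on autosomes) were summed into windows of 1 kb with at least 3 CpGs, starts (GENCODE M21, starts within 500 bp joined) and bodies with at least 10 CpGs. The quasi-binomial model (logit link, terms for cell type and sex) leaves 1 residual degree of freedom. Its dispersion was squeezed with limma 3.58.1 in R 4.3.3 over features with 5 expected reads of each kind, and p-values were adjusted over all features by Benjamini-Hochberg. For windows the prior degrees of freedom were infinite, so window p-values rest on an average spread (dispersion 1.31) and the smallest overstate certainty. P-values measure the spread between these 4 files only. The script was tested on simulated reads.

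Named are, per gene and direction, up to 3 called windows with the largest smaller-of-both-sexes difference, all starts, all bodies, and the first 6 genes of the list by that value; other windows given were chosen after their values were seen. The 7 genes, the lists and the tests were chosen with earlier results of these data known. Alternatives changed the coverage minimum, window size, CpG minimum, difference minimum, dispersion prior, model, sex term, files and the weight of CpGs.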

Additional observations from a re-analysis of the deposited data

How the results depend on the processing

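The count of 40 windows called between B and T cells (34 higher and 6 lower in B cells) became 64 with windows of 500 bp (50 and 14), 73 with a minimum difference of 10 points (52 and 21) and 17 with limma on log2 ratios (16 and 1). The other alternatives gave 28 (minimum 10 reads) to 40, and leaving out 1 file, with no sex term, gave 33 to 39. The 2 called bodies became 1 with limma (Tet3 lost, adjusted p = 0.0514), 1 with the whole annotated gene (Uhrf1 lost, adjusted p = 0.0815) and 0 with a minimum of 10 points, and stayed 2 without any 1 file. The counts of 0 called starts and 0 windows called between the sexes held under every alternative run for them. The causes of these changes were not tested. Of the 23 named windows, 9 stayed called under every alternative that gave a test for them. They are those of Tet3, Tet1 and Dnmt1, the core window of Uhrf1 and chr3:133508001-133509000 in Tet2. Windows of 500 bp were compared by count only, so no named window was tried there. The Tet2 window, with 4 CpGs, was not tried with a minimum of 5 CpGs either. With a minimum of 10 reads, 6 of the 23 had too few CpGs to give a value, namely 1 in Dnmt3a, all 3 of Tet2, and chr10:62852001-62853000 and chr10:62857001-62858000 in Tet1, so that 3 of the 9 were not tried there, and the called windows went from 7 to 4 in Tet1 and from 3 to 0 in Tet2. The other 14, in Dnmt3a, Dnmt3b, Tet2 and Uhrf1, lost the call under 1 to 7 alternatives, and no difference changed sign. Without the female B cell file 4 named windows lost it, without the female T cell file 5, without the male B cell file 4 and without the male T cell file 2. These include chr12:3824001-3825000 (−18.7 points without the male T cell file), chr2:153651001-153652000 (18.1 points without the female B cell file) and chr17:56328001-56329000 (19.7 points without the female T cell file), which fell under the minimum of 20 points. Depth limits single windows, since the 95% interval of a named level reached 13.5 points to a side. With CpGs at equal weight, where no test was made, the differences of 3 of the 23 named windows moved by more than counting error. No paired analysis was possible because the groups share no replicate numbers and have 1 file each, beyond the pairing of B and T cell files by sex that the sex term and the tests within each sex make.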
